A study of Mus musculus with 10 samples.

Results

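The cells described here are the 95 cells, of 44986 in the single-cell matrix (0.211%), to which the authors gave cluster number 22. They were taken by that number alone, and cluster 22 was the smallest of the authors' 33 clusters. The clusters carry no names in the files. Cluster 22 is set beside clusters 21 (2071 cells) and 23 (2022 cells), the tumour cell clusters.

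The cells came from lung nodules of 12 mice. The tumours had been grown from cells of the KP line, a mouse lung adenocarcinoma line, put into a vein of syngeneic hosts, so every group carried the same line in a host of matching strain. Tumour-bearing mice received vehicle, SHP099, SX682 or both drugs together for 11 days, with 3 mice in each of the 4 groups. The mice of a group were told apart by hashtag oligos and shared 1 droplet capture, and therefore the treatments and the captures cannot be told apart. SHP099 is an inhibitor of the phosphatase SHP2, the product of Ptpn11, which carries growth factor signals towards ERK. SX682 acts against CXCR1 and CXCR2, receptors for neutrophil-attracting chemokines. Bulk RNA of sorted Epcam+ cells from the same tumour model gave 3 SHP099 and 3 vehicle libraries, which took no part in the clustering.

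Lung adenocarcinoma cells are epithelial. They hold the simple-epithelium keratins Krt8, Krt18 and Krt19 as their intermediate filaments, the junction protein E-cadherin (Cdh1) and the adhesion molecule Epcam. In droplet data such cells can lie beside barcodes with little RNA, a high share of mitochondrial transcripts or transcripts of other cells in the same suspension.

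Cluster 22 was a shallow, keratin-positive group of cells. Its median cell held 1417 UMIs (unique molecular identifiers, each standing for 1 captured transcript; range 520 to 21520) from 792 genes. The median was 7395 UMIs in cluster 21, 15136 in cluster 23 and 2029 over all cells outside cluster 22. In 12 of 12 mice the median member was shallower than the median cell of clusters 21 and 23. The median share of mitochondrial UMIs was 7.95%, the 2nd highest of the 33 clusters, against 3.19% in cluster 21 and 2.56% in cluster 23. It was above that of the tumour clusters in 9 of 12 mice. Of the other clusters, 9 had a lower median UMI count, so low depth alone did not mark cluster 22. The members were uneven in depth. A set of 8 cells with 3000 UMIs or more held 32.6% of the 176411 UMIs of the cluster, and 1 cell of vehicle mouse 3, with 21520 UMIs, held 12.2%. Summed levels below therefore lean on these cells, and values without them are given for the keratins, Areg and the comparison of treatments within the cluster. Of 1009 barcode sequences found in more than 1 treatment, 3 belonged to members.

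The epithelial markers were present. Of 8 tumour epithelial markers, 5 were at least 1 log2 unit higher in cluster 22 than in all other cells, namely Krt8, Krt18, Krt19, Krt7 and Cdh1. The same rule gave 6 in cluster 21 and 4 in cluster 23. Values are CPM (UMIs of a gene scaled to a fixed total of UMIs) of summed UMIs, and differences are of log2(CPM + 10). Krt8 stood at 3344 CPM in cluster 22, 4978 in cluster 21 and 3491 in cluster 23. Krt18 stood at 1723, 2111 and 2653 CPM and Krt19 at 1695, 2743 and 1803 CPM in the same order. Cdh1 stood at 153, 237 and 140 CPM. The deepest members weighed on these levels, as 1 cell gave 43.1% of the Krt19 UMIs. Without the 8 deepest members Krt18 stood at 967 CPM and Krt19 at 925, against 2473 and 2116 in clusters 21 and 23 summed (-1.35 and -1.18 log2 units). Krt8 then stood at 2834 CPM against 3986, so Krt8 stayed nearer to the tumour level than Krt18 and Krt19. Krt7 was found in 3.16% of members, and stood at 85.0 CPM with and 16.8 without the deepest members. Epcam stood at 193 CPM in cluster 22, 1116 in cluster 21 and 103 in cluster 23. Cldn4, a tight junction protein, was at 0 in cluster 22. Cells outside cluster 22 include the tumour clusters, and without the 8 deepest members only Krt8 and Cdh1 passed this rule. Against cells outside clusters 20 to 24, 6 of 8 markers passed it, both with and without those 8 members, and Krt8 was 5.43 log2 units higher in the shallower 87 (2834 against 56.1 CPM). The planned rule used all other cells, and the second background, which also drops the unnamed clusters 20 and 24, was not part of it. On these markers, which do not separate tumour from other epithelium, the cluster is called tumour-epithelial-like here.

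The keratins were carried by most members rather than by a few. At least 1 UMI of Krt8, Krt18 or Krt19 was found in 86 of 95 members (90.5%), and at least 3 UMIs in 79 (83.2%). Among cells outside clusters 20 to 24 the shares were 14.9% and 2.50%, at a median depth of 1768 UMIs. Among cells with 1000 to 2000 UMIs, 90.3% of 62 members and 0.983% of 11998 cells outside clusters 20 to 24 had 3 or more keratin UMIs. The share in these other cells serves as the background, and the members lay far above it within this window of depth (medians of 1422.5 and 1389 UMIs). No keratin UMI was found in 9 members.

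**Figure D1:**
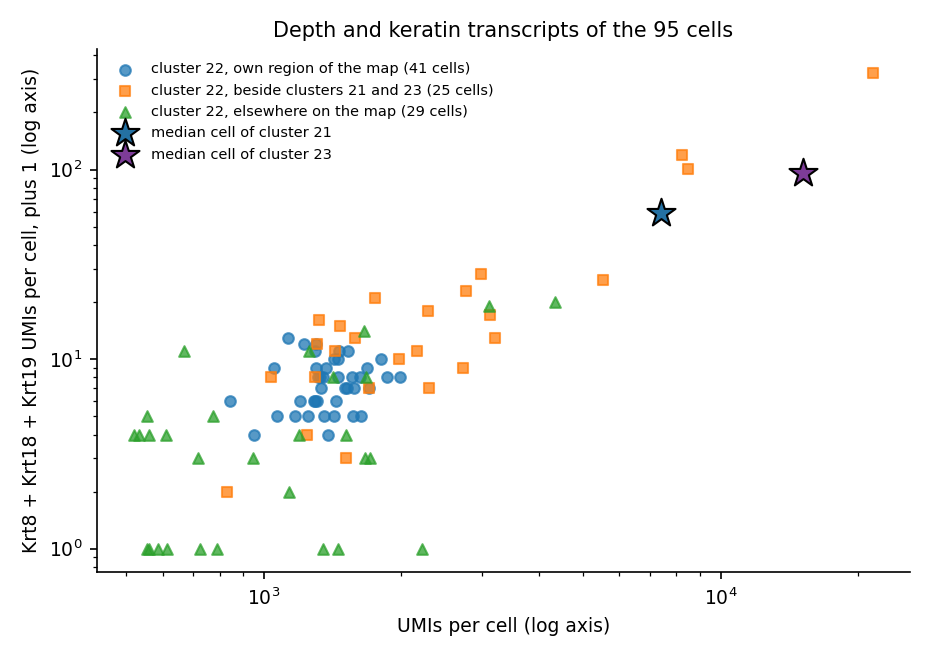
Keratin UMIs (Krt8, Krt18 and Krt19 together, plus 1, log axis) against total UMIs (log axis) of each of the 95 cells, with symbols for the part of the authors' map on which a cell lies and stars for the median cells of clusters 21 and 23. Most cells sit near 1417 UMIs and 7 keratin UMIs, below the 58 and 95 keratin UMIs of the median tumour cells, and 8 cells lie at 3000 UMIs or more.

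The members did not lie together on the authors' two-dimensional map. Of each member's 15 nearest neighbours, 40.2% on average were members too, 18.5% were cells of cluster 21 and 12.7% of cluster 23. A set of 41 members lay in a region of their own, 25 beside clusters 21 and 23, and 29 elsewhere. All 41 in their own region had 3 or more keratin UMIs, with a median depth of 1369 UMIs and a mitochondrial share of 8.91%. Of these 41 cells, 20 came from SX682 mouse 2. The 25 beside the tumour clusters were deeper, with a median of 1978 UMIs, 12 keratin UMIs and a mitochondrial share of 5.21%, and every one had a keratin UMI. The 29 elsewhere had a median of 948 UMIs, and a keratin UMI in 20. These 3 sets were drawn from the map after it was seen and are a description.

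The leading genes were chosen as the 15 with the largest log2 difference from all other cells, among 702 genes at 100 CPM or more and in at least 25% of members. They give the cluster's own profile and are no test, because the clusters were made from these genes. The first was AY036118, a long non-coding RNA, at 2670 CPM in cluster 22, 516 in cluster 21, 333 in cluster 23 and 284 in all other cells (3.19 log2 units above all other cells). It was found in 74.7% of members. AY036118 lies on mouse chromosome 17 from 39847113 to 39848035, on the minus strand (GENCODE vM21, mm10), as 1 exon of 923 bases. All 923 bases fall inside Gm42418, a 1-exon gene on the plus strand from 39846958 to 39848788, a locus known to carry ribosomal RNA precursor sequence. Gm42418 itself stood at 14619 CPM in cluster 22 against 8829 and 3981 in clusters 21 and 23. Whether the single-cell counting used strand is not given in the sources used here, so reads of the 2 overlapping genes may not be told apart.

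The mitochondrial genes mt-Nd6, mt-Atp8 and mt-Nd5 were also among the 15. mt-Nd6 stood at 210 CPM in cluster 22 against 33.8 in cluster 21 and 20.7 in cluster 23, and was 2.73 log2 units above all other cells. Without SX682 mouse 2 it stood at 92.0 CPM (1.62 log2 units above all other cells). It then left the first 15 because it was under the required 100 CPM, not because of its difference. mt-Nd5, like mt-Nd6 a subunit of respiratory complex I, stood at 1406 CPM against 486, 361 and 404. mt-Atp8, a subunit of ATP synthase, stood at 176 CPM against 56.3, 37.2 and 36.0. All 13 mitochondrially encoded genes were higher in cluster 22 than in clusters 21 and 23 summed, 11 of them by 1 log2 unit or more, with a median difference of 1.16. By contrast the 10 nuclear genes of the respiratory chain list had a median difference of -0.32, with none at 1 log2 unit or more either way.

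Part of the leading genes were also high in the tumour clusters. Of the 15, 8 were at least 1 log2 unit above all other cells in both tumour clusters, and 8 lay within 1 log2 unit of both. Itga6, a laminin-binding integrin subunit, stood at 295 CPM in cluster 22, 184 in cluster 21, 169 in cluster 23 and 77.8 in all other cells. Igfbp3, a binding protein of insulin-like growth factors, stood at 227 CPM in cluster 22, 218 in cluster 21 and 173 in cluster 23. Emp1, an epithelial membrane protein, stood at 754, 821 and 546 CPM in the 3 clusters. Apob, the apolipoprotein of secreted lipoprotein particles, stood at 300 CPM in cluster 22, between 579 in cluster 21 and 111 in cluster 23. 2610528A11Rik stood at 402 CPM in cluster 22, 951 in cluster 21 and 101 in cluster 23, where it was below all other cells (118). The other leading genes were Sema3c (a secreted semaphorin), Me1 (malic enzyme), Fat1 (a giant cadherin), Tm4sf4 (a membrane protein of the tetraspan type) and Ahnak (a very large scaffold protein). Areg, an EGFR ligand, stood at 941 CPM, but 74.1% of its UMIs came from 1 cell. Without the 8 deepest members it stood at 210 CPM and left the list, and 8 of the 15 leading genes remained among the first 15. AY036118, mt-Nd6 and mt-Atp8 then held the first 3 places. Without SX682 mouse 2, 10 of the 15 remained.

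**Figure D2:**
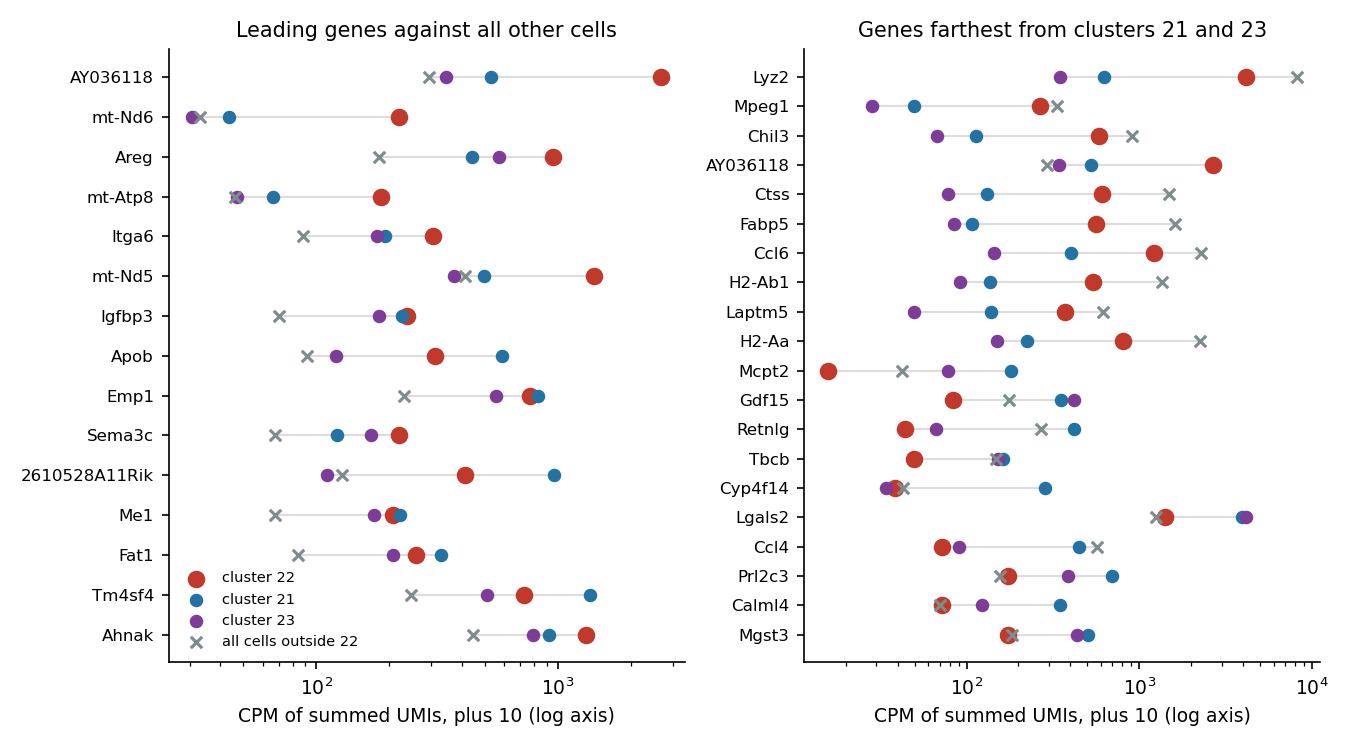
CPM of summed UMIs plus 10 (log axis) of the 15 leading genes (left) and of the 10 genes highest and 10 lowest against clusters 21 and 23 (right), with red points for cluster 22, blue for 21, purple for 23 and crosses for all cells outside 22. AY036118 and mt-Nd6 stand apart from every other point on their line, and most genes highest against the tumour clusters, such as Lyz2 and Ctss, sit below their level in all other cells.

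Against clusters 21 and 23 summed, 1663 genes had 100 CPM or more in either, with a median difference of -0.11. Of these, 95 were higher in cluster 22 by 1 log2 unit or more and 53 were lower. In 6 mice that had at least 5 members (3 vehicle mice, SX682 mouse 2 and combination mice 1 and 2) the sign held in every mouse for 36 and 34 of them. For 11 of the 95, more UMIs came from 1 cell than from all others together. The number lower by 1 log2 unit was unsteady, ranging from 20 to 262 over the alternatives in the closing section.

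Genes known in leukocytes, though not always only there, led the list of those higher in cluster 22 than in the tumour clusters. This list was limited to genes higher in each of the 6 mice. Lyz2, a lysozyme abundant in myeloid cells, stood at 4149 CPM in cluster 22, 616 in cluster 21, 338 in cluster 23 and 8190 in all other cells. By mouse it stood at 1128, 2333 and 1194 CPM in vehicle mice 1 to 3, 2879 in SX682 mouse 2, and 6148 and 7812 in combination mice 1 and 2. In clusters 21 and 23 the same mice had 454, 524, 363, 514, 771 and 734 CPM. Every mouse was higher in cluster 22, as the limit of the list required. The difference was 3.24 log2 units over all cells and 2.33 ± 0.79 as a mean over mice (SD, n = 6). A Lyz2 UMI was found in 90.5% of members, 43.8% of cluster 21 and 36.3% of cluster 23. After thinning each cell to 500 UMIs the shares were 67.4%, 12.9% and 9.15%. The number of Lyz2 UMIs per cell was closer, at a mean of 7.71 in cluster 22, 5.52 in cluster 21 and 6.23 in cluster 23. In bulk vehicle libraries of sorted Epcam+ cells, Lyz2 stood at 2208, 1419 and 1895 CPM. The macrophage gene Mpeg1 stood at 22.8, 10.7 and 10.2 CPM in the same libraries. Which cells gave the Lyz2 transcripts of cluster 22 was not tested.

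The others of the 10 highest, beside AY036118, were known in macrophages, dendritic cells or leukocytes at large. Mpeg1, a pore-forming protein of macrophages, was 2.91 log2 units higher and Chil3, a chitinase-like secreted protein of macrophages, 2.83. Ctss, a lysosomal protease of antigen-presenting cells, was 2.66 higher, Fabp5, a fatty acid carrier, 2.60, and the chemokine Ccl6 2.40. The class II antigen chains H2-Ab1 and H2-Aa were 2.35 and 2.20 higher, and Laptm5, a lysosomal protein of blood cells, 2.24. Each of these 9 genes was lower in cluster 22 than in all other cells, as Ccl6 was at 1207 against 2258 CPM.

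Marker lists gave the same picture in numbers. Of 7 pan-leukocyte markers, 6 were higher than in the tumour clusters by 1 log2 unit or more, with a median difference of 1.61, and none was raised against all other cells. Their summed level was 2970 CPM in cluster 22, 1962 in cluster 21 and 533 in cluster 23, and 47.7% of the level in all other cells. Macrophage markers were at 26.4% of that level, alveolar macrophage markers at 59.8%, conventional dendritic markers at 43.2%, T cell markers at 27.5%, NK cell markers at 46.2% and B cell markers at 39.9%. Neutrophil markers summed to 3532 CPM, 49.1% of that level, and lay below cluster 21 (7641) and above cluster 23 (1088). So markers of these leukocyte types were present in the sums over members, each list below its level elsewhere. Their presence together in single cells was not counted. A further 2 leukocyte lists lay above that level, each with 1 raised gene. Monocyte markers were at 161%, with Plac8 at 1814 CPM, 2905 in cluster 21, 1274 in cluster 23 and 797 in all other cells. Innate lymphoid type 2 markers were at 448%, with Areg raised. Of 7 class II genes, 6 were higher than in the tumour clusters, with a median difference of 2.00, and their summed level was 3968 CPM against 1146 and 759. Cd74, the class II invariant chain, stood at 1961 CPM against 619 and 414, and at 6348 in all other cells.

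The number of leukocyte transcripts per cell depended on how it was measured. The pan-leukocyte list gave a mean of 5.52 UMIs per member, 17.6 per cell of cluster 21 and 9.81 per cell of cluster 23, while the medians were 4, 12 and 3. At least 3 such UMIs were found in 67.4% of members, 75.7% of cluster 21, 51.0% of cluster 23 and 90.2% of other cells. Among cells of 1000 to 2000 UMIs the means were 3.95 in cluster 22 (62 cells), 3.64 in cluster 21 (80 cells) and 2.44 in cluster 23 (48 cells). At that depth the summed list therefore came close to cluster 21, while Lyz2 and Cd74 did not. Lyz2 stood at 3680 CPM against 419 and 318, Cd74 at 1975 against 340 and 248, and Tyrobp, an adaptor of myeloid receptors, at 1055 against 1132 and 704. The median mitochondrial share of the same cells was 8.30% in cluster 22, 6.21% in cluster 21 and 6.30% in cluster 23, and its part in these levels was not tested.

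**Figure D3:**
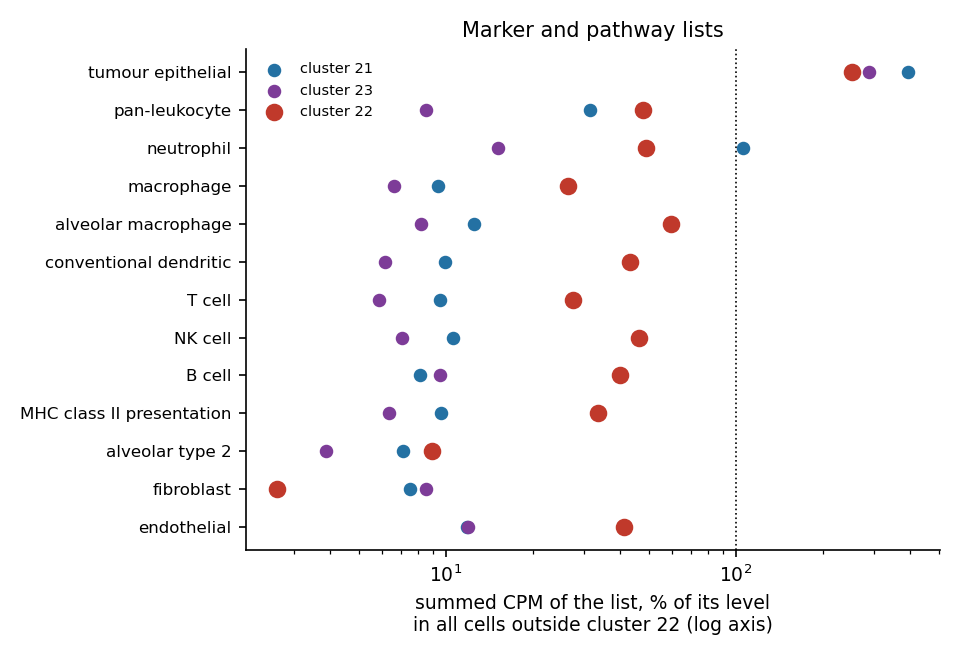
Summed CPM of 13 gene lists in clusters 21, 22 and 23, as a percentage of the level in all cells outside cluster 22 (log axis; the dotted line marks 100%). The tumour epithelial list lies above the line in the 3 clusters, and cluster 22 (red) lies to the right of both tumour clusters for macrophage, dendritic, lymphocyte and class II lists, at 26.4 to 59.8% of the outside level.

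Marker lists of further cell types lay on both sides of their level in all other cells. Alveolar type 2 markers summed to 119 CPM in cluster 22, 8.99% of their level in all other cells, and fibroblast markers to 5.67 CPM, 2.63%. Erythroid markers were at 0. Endothelial markers were at 41.0% and ciliated markers at 22.4%. Above that level were alveolar type 1 markers (132%) and mesenchymal markers (127%), with 0 raised genes each. Neuroendocrine markers (219%, Ncam1 raised), basal and squamous markers (372%, Sprr1a), mesothelial markers (232%, Krt19) and gastric and gut markers (148%, Cdx2) had 1 raised gene each. The club cell secretoglobin Scgb1a1 had 195 UMIs in the cluster, of which 187 lay in 1 cell of SHP099 mouse 1 that held 561 UMIs in all. Its summed CPM of 1105 was thus that of a single cell.

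Genes lower in cluster 22 than in the tumour clusters were of several kinds. Gdf15, a stress-induced cytokine, stood at 73.7 CPM against 343 in cluster 21 and 412 in cluster 23. By mouse it stood at 0, 0 and 73.1 CPM in vehicle mice, 143 in SX682 mouse 2, and 0 and 210 in combination mice, against 265 to 598 CPM in clusters 21 and 23. Lgals2, a galectin of gut-type epithelium, stood at 1394 CPM against 3937 and 4152, and Mgst3, a glutathione transferase, at 164 against 496 and 427. Tbcb, a tubulin folding cofactor, stood at 39.7 against 152 and 143. These 4 were lower than both tumour clusters by similar amounts. Cyp4f14, a cytochrome P450, stood at 28.3 CPM against 274 in cluster 21, and Retnlg, a resistin-like gene of neutrophils, at 34.0 against 412 and 56.3. The remaining 4 were Mcpt2 (a mast cell protease), Ccl4 (a chemokine), Prl2c3 (a prolactin-family gene) and Calml4 (a calmodulin-like protein), with differences of -2.84, -1.54, -1.49 and -1.46. With cells of at most 2 leukocyte UMIs the sign turned for Retnlg (1.14) and Ccl4 (3.16), both genes of leukocytes.

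**Figure D4:**
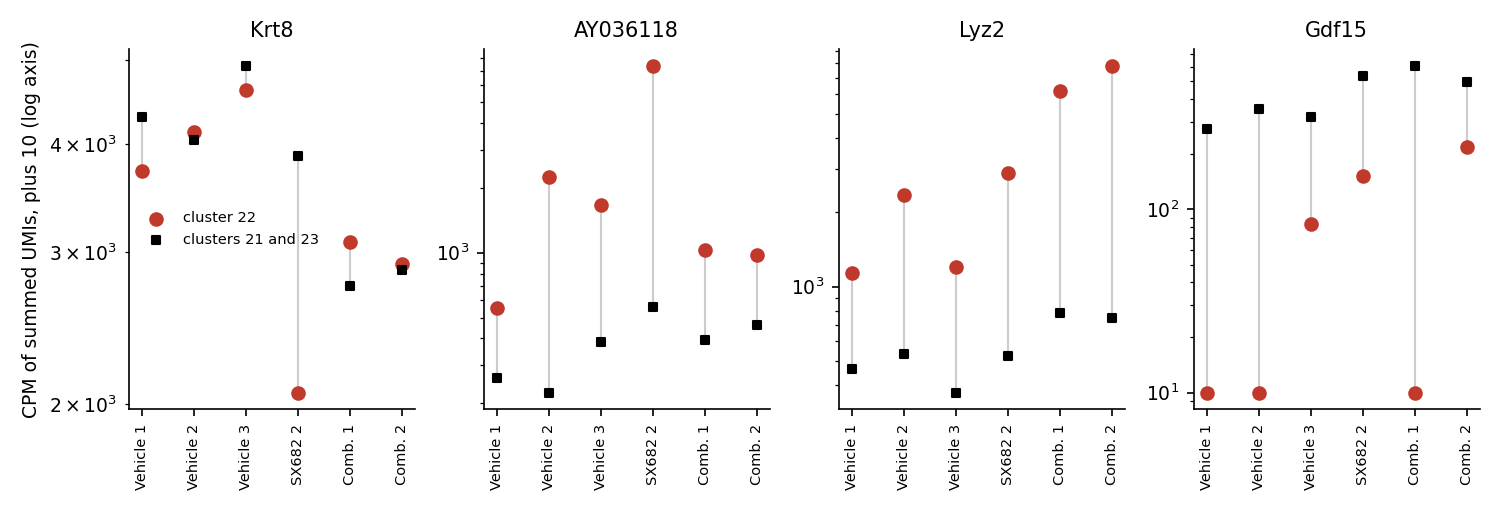
CPM of summed UMIs plus 10 (log axis) of Krt8, AY036118, Lyz2 and Gdf15 in the 6 mice with at least 5 members, red for cluster 22 and black for clusters 21 and 23 of the same mouse. AY036118 and Lyz2 are higher and Gdf15 is lower in cluster 22 in each of the 6 mice, as the choice of these 3 genes required. The 2 Krt8 points lie close together except in SX682 mouse 2.

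Single mice differed. AY036118 stood at 546, 2234 and 1657 CPM in vehicle mice 1 to 3, at 7382 in SX682 mouse 2 and at 1025 and 966 in combination mice 1 and 2, with 214 to 550 in the tumour clusters of these mice. SX682 mouse 2 was thus highest, and without it the difference from the tumour clusters was 1.94 log2 units in place of 2.73. Krt8 stood at 3712, 4120 and 4605 CPM in vehicle mice, 2052 in SX682 mouse 2, and 3074 and 2898 in combination mice. In the tumour clusters of the same mice it stood at 4289, 4028, 4916, 3860, 2732 and 2849 CPM, so only SX682 mouse 2 departed by much. The median mitochondrial share of members in that mouse was 8.34%, against 5.27%, 7.58% and 13.2% in vehicle mice and 4.48% and 3.61% in combination mice 1 and 2.

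Clusters 21 and 23 differed by 2 log2 units or more in 76 genes that were higher in cluster 21 and 10 that were higher in cluster 23. An intermediate level in cluster 22 is likely for genes chosen by such a gap, so their levels are a description only. The genes higher in cluster 21 include gut-type epithelial genes and genes of neutrophils and other myeloid cells. Lgals4, a galectin of the gut epithelium, stood at 2638 CPM in cluster 21, 527 in cluster 22 and 565 in cluster 23, and Krt20, a keratin of gut epithelium, at 1084, 312 and 244. S100a9, a calcium-binding protein of neutrophils, stood at 3345, 1729 and 474 CPM. Most of the genes higher in cluster 23 act in cell division. Birc5, the mitotic protein survivin, stood at 10.1 CPM in cluster 21, 73.7 in cluster 22 and 158 in cluster 23. Top2a, a DNA topoisomerase of dividing cells, stood at 11.9, 113 and 124 CPM. These sums leaned on few members. At unequal depth, Top2a was found in 8.42% of members and 30.7% of cluster 23, and 1 member gave 35.0% of its UMIs. Birc5 was found in 7.37% of members and 30.4% of cluster 23. Against clusters 21 and 23 summed, cluster 22 was lower in 4 of 6 mice for Top2a and in 5 of 6 for Birc5. Spp1, the secreted protein osteopontin, was above both tumour clusters at 2398 CPM against 427 and 1998. Over 4867 genes, the correlation of log2 levels with cluster 22 was 0.915 for cluster 23 and 0.914 for cluster 21, and 0.805 for the next, cluster 15. This is across genes, which are not independent, and the clusters share captures and depth.

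Some genes of the ERK feedback and low-oxygen lists were higher than in all other cells. Of the 8543 genes at 10 CPM or more in cluster 22, 6.68% were raised by 1 log2 unit or more. In the ERK feedback list, 3 of 10 genes were raised in each of the 3 clusters. Dusp6, an ERK phosphatase, stood at 79.4 CPM in cluster 22, 68.8 in cluster 21 and 55.9 in cluster 23, against 34.3 in all other cells. Spred2, an inhibitor of the RAS pathway, stood at 68.0, 45.7 and 35.4 against 18.5, and Phlda1 at 476, 393 and 347 against 178. In the low-oxygen list, 2 of 10 genes were raised in cluster 22, 6 in cluster 21 and none in cluster 23. Pgk1, a glycolytic kinase, stood at 879 CPM against 996 and 536, and Bnip3, a mitophagy receptor, at 215 against 308 and 91.0. The type I interferon list was not raised, with 0 of 8 genes in cluster 22 and 5 in cluster 21.

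The mean share of cluster 22 was lowest in mice on SHP099. Vehicle mice 1 to 3 had 15, 9 and 14 members among 6399, 3422 and 2632 cells, shares of 0.234%, 0.263% and 0.532% of all cells (0.343% ± 0.164, SD, n = 3). SHP099 mice had 3, 2 and 1 members among 3789, 3084 and 2289 cells, shares of 0.0792%, 0.0649% and 0.0437% (0.0626% ± 0.0179, SD, n = 3). All 3 SHP099 mice thus lay below all 3 vehicle mice, although counts of 1 to 3 cells leave wide intervals, with an upper 95% exact binomial bound of 0.231% to 0.243%. The SHP099 members held 0, 0 and 2 keratin UMIs in mouse 1, 1 and 11 in mouse 2 and 0 in mouse 3. On the map, 3, 1 and 1 of them lay elsewhere and 0 in the cluster's own region. The markers behind the cluster's name were thus scarce in most SHP099 members. In SX682 mice there were 3, 25 and 3 members among 3788, 4131 and 2858 cells, shares of 0.0792%, 0.605% and 0.105% (0.263% ± 0.297, SD, n = 3). Combination mice had 5, 13 and 2 members among 4239, 5421 and 2934 cells, shares of 0.118%, 0.240% and 0.0682% (0.142% ± 0.0883, SD, n = 3). SX682 mouse 2 stood far from the other mice of its group, with an exact interval of 0.392% to 0.892%, and without it the SX682 mean was 0.0921%. Intervals cover counting error only.

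**Figure D5:**
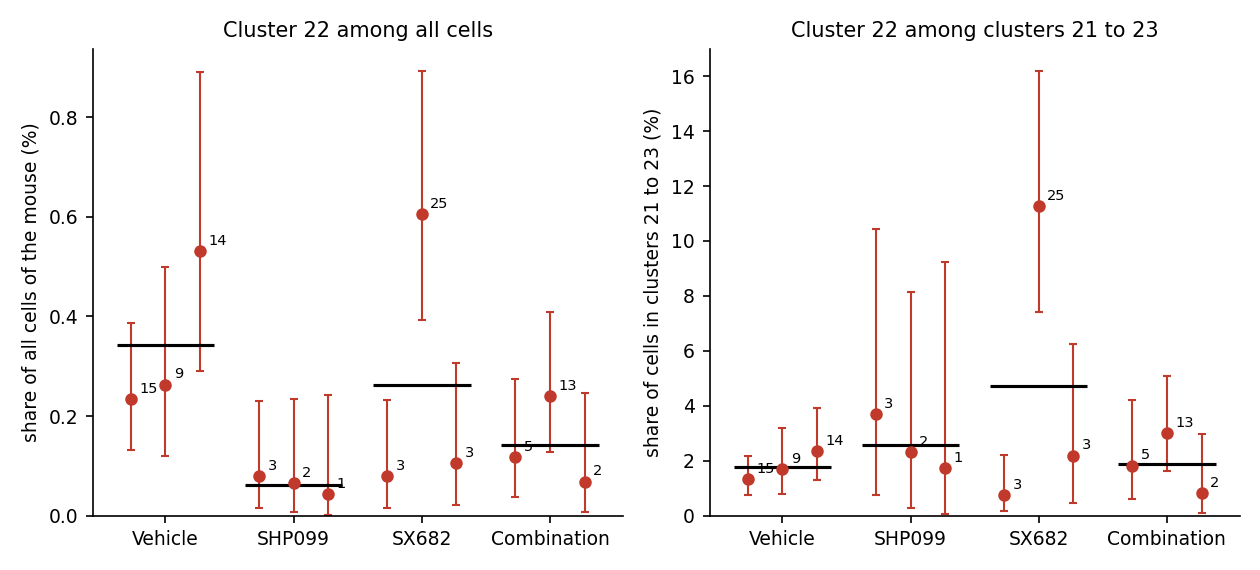
Share of cluster 22 in each mouse among all cells (left, %) and among the cells of clusters 21 to 23 (right, %), by treatment. Points are mice with 95% exact binomial intervals, numbers beside them count members and black lines are group means; the 3 SHP099 mice lie below the 3 vehicle mice on the left and overlap them on the right, and SX682 mouse 2 (25 members) is highest in both.

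Over the 4 treatments the shares did not differ past the threshold by an exact permutation test over mice (p = 0.103, adjusted p = 0.170 over 33 clusters). By the same test 12 clusters passed, 36.4% of 33. Without SX682 mouse 2 the adjusted p of the exact permutation test was 0.046. By edgeR's quasi-likelihood test on cell counts, the share fell with SHP099 against vehicle by 2.31 log2 units ± 0.87 (SE, Benjamini-Hochberg adjusted p = 0.0369). Of the 33 clusters, 51.5% passed that contrast, so this call is not particular to cluster 22. It was kept in 12 of 18 alternatives, with adjusted p from 0.000701 to 0.141. It was lost under TMM scaling of the cell counts, without vehicle mouse 3, without any 1 of the 3 SHP099 mice and without combination mouse 1 (edgeR adjusted p = 0.0533, 0.141, 0.0949, 0.108, 0.0974 and 0.0518). Clusters 21 and 23 fell by 3.83 ± 0.43 and by 2.23 ± 0.45 log2 units (SE; edgeR adjusted p = 7.0e-06 and 0.00105).

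The other contrasts of the share did not pass. SX682 against vehicle gave -0.29 ± 0.72 log2 units (SE; edgeR adjusted p = 0.811; 3.03% of clusters passed), and its sign changed without vehicle mouse 3, SX682 mouse 1 or SX682 mouse 3. Without SX682 mouse 2 it was -1.83 ± 0.61 (SE; edgeR unadjusted p = 0.00872, adjusted p = 0.132). The combination against vehicle gave -1.14 ± 0.75 (edgeR adjusted p = 0.255; 24.2% of clusters passed). The combination against SHP099 alone gave 1.17 ± 0.91 and against SX682 alone -0.85 ± 0.75 (edgeR adjusted p = 0.482 for both; 9.09% of clusters passed each), and the second turned to 0.69 without SX682 mouse 2. The effect of SHP099 with SX682 did not differ past the threshold from its effect without (interaction 1.46 ± 1.16 log2 units, edgeR adjusted p = 0.467).

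Relative to the tumour clusters, the shares of cluster 22 in SHP099 and vehicle mice overlapped. Clusters 21 and 23 together made up 18.3% ± 3.44 of cells in vehicle mice, 2.42% ± 0.337 with SHP099, 6.59% ± 3.23 with SX682 and 7.40% ± 0.929 with the combination (SD, n = 3 each). Among the cells of clusters 21 to 23, cluster 22 made up 1.32%, 1.69% and 2.36% in vehicle mice and 3.70%, 2.33% and 1.72% in SHP099 mice, which overlap. The SHP099 values rest on 3, 2 and 1 members, most of them with few or no keratin UMIs. In the other groups the shares were as follows. Cluster 22 made up 0.761%, 11.3% and 2.19% in SX682 mice and 1.82%, 3.01% and 0.833% in combination mice. An exact permutation test over the 4 treatments gave p = 0.721, and adjusted over the 3 clusters of the set none was called (0.00%; none of the 3 had an unadjusted p below 0.05). SX682 mouse 2 was again highest, at 11.3% with an exact interval of 7.42% to 16.2%.

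Gene levels within cluster 22 could be compared between treatments only in part. No contrast had 2 mice per group with at least 10 members, and SHP099 mice had at most 3. With a minimum of 5 members, chosen after the counts were seen, the 3 vehicle mice could be set against combination mice 1 and 2. SX682 mouse 2 also met this minimum and stayed in the fit and in the gene filter as a group of its own. By edgeR's quasi-likelihood test on UMIs summed per mouse, 18 of 656 genes passed (2.74%), 5 higher and 13 lower with the combination. When SX682 mouse 2 was left out, 414 genes were tested and 3 passed by edgeR. Without the 8 members of 3000 UMIs or more, 0 of 436 genes passed by edgeR (39 at an unadjusted p below 0.05), and DESeq2 on all cells called 6. The deepest cell alone held 52.4% of the UMIs of vehicle mouse 3. Of the 18 genes, 17 were still tested and kept their sign without these 8 members. The gene no longer tested was Sprr1a, which had the largest fall. Over all members, its UMIs in vehicle mice 1 to 3 lay in 4, 3 and 2 cells. The calls are therefore given as values, with those without the deepest members beside them.

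The 5 higher genes were Lyz2, Chil3, Fabp5, Gpnmb (a lysosomal glycoprotein) and Gm42418. Lyz2 stood at 1783, 3742 and 1848 CPM on TMM-scaled totals in vehicle mice and at 8448 and 12013 in combination mice, 2.11 log2 units ± 0.33 higher (SE; edgeR adjusted p = 0.000145). The groups did not overlap. Without the 8 deepest members Lyz2 stood at 2831, 7174 and 3417 CPM against 9723 and 10720 (1.22 log2 units, edgeR adjusted p = 0.468). Of the 13 lower genes, the 10 with the largest differences are named first. Sprr1a, a cornified envelope protein, Pgk1 and Tpi1 and Ldha of glycolysis, the early-response genes Fos and Btg2, the matrix protein Thbs1, and Srgn, S100a9 and Cxcl2, which are abundant in neutrophils, fell by 1.76 to 5.03 log2 units. Of the others, the histone gene H2afz fell by 1.59, Gapdh of glycolysis by 1.19 and Krt19, one of the markers behind the name, by 1.64 (edgeR adjusted p = 0.0301). Without the deepest members the difference of Krt19 was -0.50. Pgk1 stood at 1783, 1831 and 2602 CPM in vehicle mice and 235 and 258 in combination mice. Without the deepest members it stood at 1604, 1832 and 2029 against 270 and 290 CPM, which still did not overlap (-2.62 log2 units, edgeR adjusted p = 0.113). Pgk1 was also lower in these combination mice outside cluster 22. On unscaled totals it stood at 989, 773 and 948 CPM in clusters 21 and 23 of the vehicle mice and 299 and 255 in those of the combination mice. In all other clusters it stood at 315, 279 and 389 against 138 and 132. Lyz2 was also higher in these combination mice outside cluster 22. It stood at 454, 524 and 363 against 771 and 734 CPM in clusters 21 and 23. In all other clusters it stood at 9390, 10022 and 8773 against 11263 and 14797. Combination mouse 3, which had too few members for the comparison, had 383 CPM of Lyz2 in clusters 21 and 23, within the vehicle range. In all other clusters it had 15644. In clusters 21 and 23 of combination mice 1 and 2, Chil3, Fabp5 and Gm42418 were also higher, and Sprr1a, Tpi1, Ldha, Gapdh, Fos and Krt19 lower, without overlap. Combination mouse 3 went the same way for Gm42418 and these lower genes. Its Chil3 (39.8 CPM) and Fabp5 (81.7 CPM) lay below every vehicle mouse there. Srgn, Cxcl2 and Thbs1 went the other way there, and the remaining called genes overlapped. The difference between cluster 22 and other cells was not tested.

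In the bulk libraries of sorted Epcam+ cells, none of the genes that mark cluster 22 passed by edgeR between SHP099 and vehicle. The test covered 20314 genes, of which 23 passed (0.113%). Fewer cells of a type and less RNA per cell cannot be told apart in bulk. Of the 15 leading genes 14 were tested, and edgeR called 0 (3 at an unadjusted p below 0.05, as were 8.92% of all genes; DESeq2 called 1, and 2.93% of all genes). Their median difference was 0.08 log2 units, against -0.00 over all genes, and the libraries of the 2 groups did not overlap for 3 of them, against 14.9% of all genes. AY036118 and Gm42418 had 0 reads in every bulk library. Bulk reads were counted without strand and all of AY036118 lies inside Gm42418, so its 0 need not mean absence. Of the 10 genes highest against the tumour clusters 9 were tested, with 0 called by edgeR (3 unadjusted; DESeq2 called 1) and 2 with groups that did not overlap. Of the 10 lowest all were tested, with 0 called by edgeR (4 unadjusted; DESeq2 called 2) and 4 with groups that did not overlap.

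The genes with the most movement in bulk were Igfbp3, Lyz2 and Prl2c3, chosen here after their values were seen. Igfbp3 stood at 275, 151 and 346 CPM in vehicle libraries and at 93.7, 98.4 and 129 in SHP099 libraries, a difference of -1.26 ± 0.29 (SE; edgeR adjusted p = 0.201). Lyz2 stood at 2208, 1419 and 1895 CPM and at 916, 327 and 727, a difference of -1.49 ± 0.36 (edgeR adjusted p = 0.225). Among genes with the same sign in each of 6 mice, Lyz2 lay farthest above the tumour clusters in cluster 22. It was thus abundant in the sorted cells too, and its groups did not overlap. Prl2c3 stood at 291, 137 and 163 CPM and at 55.7, 83.6 and 64.1, a difference of -1.54 ± 0.29 (edgeR adjusted p = 0.137). All 3 passed under DESeq2 (adjusted p = 0.00293, 0.00297 and 0.000113). Ptpn11, whose product SHP099 blocks, differed by -0.01 (edgeR adjusted p = 0.984), and Krt8 by -0.27 (edgeR adjusted p = 0.652).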

How the data were processed

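Single-cell RNA of lung nodules came from 12 mice and bulk RNA of sorted Epcam+ cells from 6 libraries. The deposited single-cell matrix holds raw UMI counts per gene and cell, and the deposited bulk tables hold raw read counts per gene, counted without strand per the file labels. Per the submitters' processing notes, Cell Ranger, STAR, Picard, HTSeq, DESeq2, bedtools and R 3.3.0 were used on mm10. The cluster number, the map position (a score on each of 2 axes) and the mouse of each cell were deposited by the authors as an annotation, and the sources used here do not give its settings. No doublet caller was run here. No deposited cell has fewer than 500 UMIs or over 20% of them from mitochondrial genes.

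The members and gene lists were chosen with earlier results of these data known. UMIs were summed per cluster and mouse, and a difference is log2(CPM + 10). Genes of 1 cluster against another were not tested, since the clusters were made from them. Named genes were the 15 leading genes, the 10 highest and 10 lowest against clusters 21 and 23 with the same sign in each of 6 mice, up to 4 genes per list, genes that passed within the cluster (up to 10 each way), and Ptpn11; part is printed, and genes named outside this rule were chosen after their values were seen. Shares were tested over mice by exact permutation (15400 partitions, F statistic of logit shares after adding 0.5 cells, smallest p 6.49e-05) and by edgeR 4.0.16 on cell counts of 33 clusters. Bulk and summed counts were tested with edgeR's quasi-likelihood F test (filterByExpr, TMM), two-sided, with Benjamini-Hochberg adjustment, calls at 0.05 and SE taken as the log2 difference over the root of F. The labels do not say whether bulk replicates came from separate mice, so their p-values measure the spread between these libraries. Bulk libraries held about 51939300 to 73361000 reads. The scripts were tested on simulated data. Alternatives were DESeq2 1.42.0, other scalings and filters, other cell sets and leaving out each mouse or library. Software was R 4.3.3 with limma 3.58.1, and Python 3.11.15 with scipy 1.17.1, pandas 2.3.3 and numpy 2.4.6. Receptor sequences and hashtag reads were left out.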

Additional observations from a re-analysis of the deposited data

How the results depend on the processing

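The fall of the share of cluster 22 with SHP099 kept its direction in each of 18 alternatives. It missed the threshold under TMM (-2.23 log2 units), and without 1 mouse it ran from -2.54 to -1.89. SX682 against vehicle ran from -1.83 (without SX682 mouse 2) to 0.16 and turned without vehicle mouse 3 (0.13), SX682 mouse 1 (0.16) and SX682 mouse 3 (0.07). The combination against SX682 ran from -1.47 to 0.69, the latter without SX682 mouse 2. The exact permutation p over 4 treatments (adjusted) ran from 0.046 to 0.333 without 1 mouse. Replicate numbers were not taken as pairs, since not every pair was above 0.1: deviations of cluster shares had a median r of 0.184 in 18 same-numbered pairs of mice (from -0.0586 to 0.740) and of -0.141 in 36 others, and bulk libraries with r of -0.0519, 0.0718 and 0.0475. With the replicate number as a block, SHP099 against vehicle gave -2.37 (edgeR adjusted p = 0.0249), the permutation test an adjusted p of 0.150, bulk 24 genes in place of 23, and the combination against vehicle within cluster 22 11 genes, 7 of them among the 18. The number of genes higher than in clusters 21 and 23, 95, became 168 with cells of at most 2 leukocyte UMIs. The number lower, 53, became 20 with a pseudocount of 50 CPM, 92 as a mean over mice, 105 in vehicle mice, 262 with at most 2 leukocyte UMIs (31 and 1494 cells), 198 after thinning, 149 among cells of 1000 to 2000 UMIs, 191 in the region of their own and 109 without the 8 deepest members. With at most 2 leukocyte UMIs Retnlg (1.14) and Ccl4 (3.16) turned. In bulk, DESeq2 called 594 genes and edgeR without a filter 283, and leaving out 1 library left 0 to 16 (edgeR; 1471 at an unadjusted p below 0.05 where none passed). Within cluster 22, in place of 18 genes, DESeq2 called 6, no filter 4, without the pair of vehicle cells described under the other observations and the Scgb1a1-rich cell 4, without the 8 deepest members 0, and without 1 mouse 0 (without combination mouse 2; 55 unadjusted) to 30. These alternatives, and those by depth, map region and single mouse of the gene contrast, were chosen after seeing the data. The cause of these changes was not tested. Counts of 1 to 25 members per mouse limit every share.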

Other observations

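A pair of vehicle cells in cluster 22 stood apart from all other members. One cell of vehicle mouse 1 (8207 UMIs) held 124 UMIs of 7 genes, Gm5039, B020031M17Rik, Tmem132c, Gm21818, Tcstv3, Gm20767 and Gm5662, and one cell of vehicle mouse 2 (8480 UMIs) held 84. A cell of cluster 23 in vehicle mouse 1 (8907 UMIs) held 76. Together, these 3 cells (2 members and the cluster 23 cell) carried 284 of the 333 UMIs of the 7 genes in the whole matrix, in which 43 cells had any. The genes were chosen after their values were seen. These cells, the cluster 23 cell included, were keratin-positive, with 44, 38 and 42 Krt8 UMIs. Tcstv3 belongs to a gene family known from the earliest cleavage stages of the mouse embryo. The mitochondrial share was 0.0366% in the first cell and 0.825% in the second, against a median of 7.95% over cluster 22.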
